A study of Mus musculus with 48 samples.

Results

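Kidney slices of 2 inbred mouse strains, C57BL/6J and DBA/2J, were compared after culture outside the body under normoxia. The comparison used 3 DBA/2J libraries and 3 C57BL/6J libraries, which are 6 of the 48 RNA-seq libraries of the series. They were chosen by their labels: male kidney, with a title giving 24 h and a treatment named normoxia and described as a model of ischemia. Both strains are founders of the BXD recombinant inbred lines. The slices of both strains received the same treatment, no drug, and carried no named engineered allele, so that strain was the labelled difference between the groups. The labels number biological replicates 1 to 3 in each group but do not say that these were separate mice, and p-values measure the spread between these libraries. Ages and oxygen levels were not given in the sources used here.

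The same strain difference was also measured in untreated control slices at 6 h, in untreated control slices at 24 h and under normoxia-hyperoxia, which the labels tie to reperfusion. Each of these conditions had 3 libraries of each strain, and none was shared with the normoxia comparison. The label of the 6 libraries names a model of ischemia, while their summed level of 20 genes of tubular injury was the lowest of the 4 conditions. It reached 1647 to 1810 CPM (counts per 1000000 counts of the library) in C57BL/6J and 1066 to 1145 CPM in DBA/2J under normoxia. The lowest library of the other 3 conditions reached 5503 CPM. The summed level of 10 genes of the early proximal tubule had its highest mean in each strain under normoxia, at 4600 to 7490 CPM in C57BL/6J and 13030 to 14660 CPM in DBA/2J. In 6 h controls it was 2550 to 5192 CPM in C57BL/6J and 6422 to 7453 CPM in DBA/2J, and it was lower in the other conditions.

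The nephron filters blood in the glomerulus, where podocytes wrap the capillaries, and passes the filtrate along the tubule. The proximal tubule takes back most of the solutes, makes glucose, degrades amino acids and secretes organic anions and drugs. It depends on mitochondrial oxidation for its energy. The thick ascending limb, the distal convoluted tubule and the collecting duct then set the final salt, water and acid content of the urine. In mice many proximal tubule enzymes and transporters respond to androgens, and the male kidney is a site where inbred strains differ in enzyme content.

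Total counts of the 6 libraries ranged from 19190333 to 24426584. A principal component analysis of the 16098 genes tested placed the C57BL/6J libraries between -66.5 and -52.4 and the DBA/2J libraries between 57.9 and 59.8 on the first component, which held 82.8% of the variance. Spearman's correlation between libraries, across genes, was 0.991 to 0.995 within the strains and 0.941 to 0.959 between them. All defining kidney markers were present in all 6 libraries, from podocyte genes to the collecting duct gene Aqp2. In edgeR's quasi-likelihood test with Benjamini-Hochberg adjustment, used for every adjusted p given here, 7975 of the 16098 genes (49.5%) differed between the strains at an adjusted p under 0.05. Of these, 3856 (24.0%) were higher and 4119 (25.6%) were lower in DBA/2J. The median absolute log2 fold of the called genes was 0.68, and 2408 genes (15% of those tested) exceeded a log2 of 1, with 957 higher (5.94%) and 1451 lower (9.01%). All log2 values are DBA/2J minus C57BL/6J. Genes were counted among the largest changes only where the libraries of the strains did not overlap, and predicted genes and pseudogene records were passed over, among them H2-Ea-ps, whose increase was larger than any of those shown. The lack of overlap in these genes thus follows from the choice. The median over all genes tested was -0.02. The CPM of the 2 strains did not overlap in 9654 genes (60.0%). Because so many genes passed, the count of any gene group below is to be read against these shares. The shares also differed with expression. In 5 equal groups of the tested genes by mean expression, the called share was 39.2% in the lowest and 58.4% in the highest. The median log2 of these 2 groups was -0.27 and 0.15, and the gene lists below were not matched for expression. The called share per chromosome ranged from 46.8 to 52.4% over 20 chromosomes.

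The gene with the largest fold that was not at the floor of detection was Hdc, histidine decarboxylase, the enzyme that makes histamine from histidine. Its level was 0.306, 0.594 and 0.714 CPM in C57BL/6J and 410.5, 379 and 409.8 CPM in DBA/2J (log2 9.51, SE 0.17, adjusted p = 1.8e-11). The DBA/2J libraries were high and close together, the C57BL/6J libraries were near 0, and the groups did not overlap. Hdc lies on the minus strand at chr2:126593667-126619299 (GRCm38). The sequence around its RefSeq start is shown for orientation. The window runs from 250 bases before to 50 bases after the RefSeq start on GRCm38.p6, chr2:126618629-126618928, minus strand, and is that of the C57BL/6J reference. It lies wholly inside the GENCODE interval of the gene given above, so the 2 annotations place the start differently.

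Hdc promoter window, in which no TATAAA was found on either strand: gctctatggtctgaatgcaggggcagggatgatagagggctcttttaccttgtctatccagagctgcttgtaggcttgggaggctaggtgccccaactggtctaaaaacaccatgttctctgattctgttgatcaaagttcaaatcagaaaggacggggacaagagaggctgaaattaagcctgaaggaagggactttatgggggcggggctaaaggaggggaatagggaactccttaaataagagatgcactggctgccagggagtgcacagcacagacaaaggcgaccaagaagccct

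In all 32851 RefSeq windows of this length, 13.6% held TATAAA on either strand. DBA/2J sequence was not analysed here, so the 2 alleles were not compared.

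Other genes of large fold had products of different kinds. Alox15, a lipoxygenase that oxidises arachidonic and linoleic acid, measured 0.35, 0.0495 and 0.102 CPM in C57BL/6J and 89.8, 58.2 and 48 CPM in DBA/2J (log2 8.47, SE 0.54, adjusted p = 7.67e-05). Tm4sf5, a tetraspanin-like membrane protein, measured 0.306, 0.149 and 0.204 CPM in C57BL/6J and 48.7, 54.8 and 49.3 CPM in DBA/2J (log2 7.76, SE 0.17, adjusted p = 2.81e-11). For both genes every DBA/2J library was far above every C57BL/6J library. Angptl7, a secreted angiopoietin-like protein, was chosen after its values were seen. It measured 5.55, 3.32 and 6.12 CPM in C57BL/6J and 411, 331 and 384 CPM in DBA/2J (log2 6.19, SE 0.20, adjusted p = 3.21e-08), again without overlap.

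In 5 further genes the C57BL/6J libraries held no count, and folds are lower bounds against a floor of 3 counts over the group. Serpina3b, a serine protease inhibitor, was at least 149-fold higher in DBA/2J, Ifi202b, an interferon-inducible gene of the Ifi200 family, at least 105-fold, the antisense transcript Pcsk2os1 at least 114-fold, and the immunoglobulin segments Ighv3-2 and Igkv8-21 at least 87.4-fold and 79-fold. Ifi202b was listed at 4.75, 5.37 and 5.05 CPM in DBA/2J. The immunoglobulin segments Igkv3-12 and Igkv5-39 had a single count over the 3 C57BL/6J libraries, with ratios of 412 (95% counting interval 73.5 to 16300) and 241 (95% counting interval 42.8 to 9550). Igkv3-12 passed the test with an adjusted p of 0.0041, which became 0.0665 without replicate 3 of C57BL/6J.

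Among the genes far lower in DBA/2J, Azgp1, a secreted zinc-binding glycoprotein, measured 145, 88.8 and 112 CPM in C57BL/6J and 0.573, 0.417 and 0 CPM in DBA/2J (log2 -8.48, SE 0.49, adjusted p = 6.06e-05). Gcnt1, a Golgi enzyme that builds core 2 O-glycans, measured 277, 313 and 339 CPM in C57BL/6J and 3.27, 1.82 and 1.09 CPM in DBA/2J (log2 -7.24, SE 0.31, adjusted p = 3.9e-06) and lies on the minus strand at chr19:17326141-17372844. Both genes were abundant in every C57BL/6J library and nearly absent from every DBA/2J library. Lrrc31, a leucine-rich repeat protein, and Trim12a, a tripartite motif protein, had a single count over the 3 DBA/2J libraries. Their ratios of C57BL/6J to DBA/2J were 1010 (95% counting interval 181 to 40100) and 786 (95% counting interval 141 to 31100). Zfp970, a zinc finger protein, was at 0 in DBA/2J and at least 121-fold lower there, and Pex5l, a relative of the peroxisomal import receptor, fell by 6.15 on the log2 scale (adjusted p = 1.68e-06).

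The remaining large decreases rested on more variable values. Serpina1f measured 34.9, 163 and 143 CPM in C57BL/6J and 1.80, 0.261 and 0.0841 CPM in DBA/2J (log2 -7.26, SE 1.16, adjusted p = 0.00807), and Ceacam2, a cell adhesion molecule, measured 2.58, 24 and 18.5 CPM in C57BL/6J and 0.164, 0.0521 and 0.21 CPM in DBA/2J (log2 -6.63, SE 1.42, adjusted p = 0.0188). In both genes replicate 1 of C57BL/6J was low against the other two, while the strains did not overlap. Ceacam2 lost its call when any single DBA/2J library was left out (adjusted p from 0.0654 to 0.0819). Serpina1d and Serpina1a, 2 members of the alpha-1-antitrypsin family, fell by 6.23 and 6.18 (adjusted p = 0.00227 and 0.00219). Genes of this family share nearly identical sequence, and the rule used for reads that fit several copies was not given in the sources used here. Atp4a, the gastric proton pump subunit, and Ttr, transthyretin, were chosen after their values were seen. Atp4a measured 159, 131 and 122 CPM in C57BL/6J and 4.46, 4.74 and 4.75 CPM in DBA/2J (log2 -4.92, SE 0.12, adjusted p = 1.21e-10), and Ttr measured 75.1, 55.6 and 72.8 CPM in C57BL/6J and 2.29, 2.19 and 1.64 CPM in DBA/2J (log2 -5.09, SE 0.17, adjusted p = 5.15e-09), with no overlap in either.

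**Figure D1:**
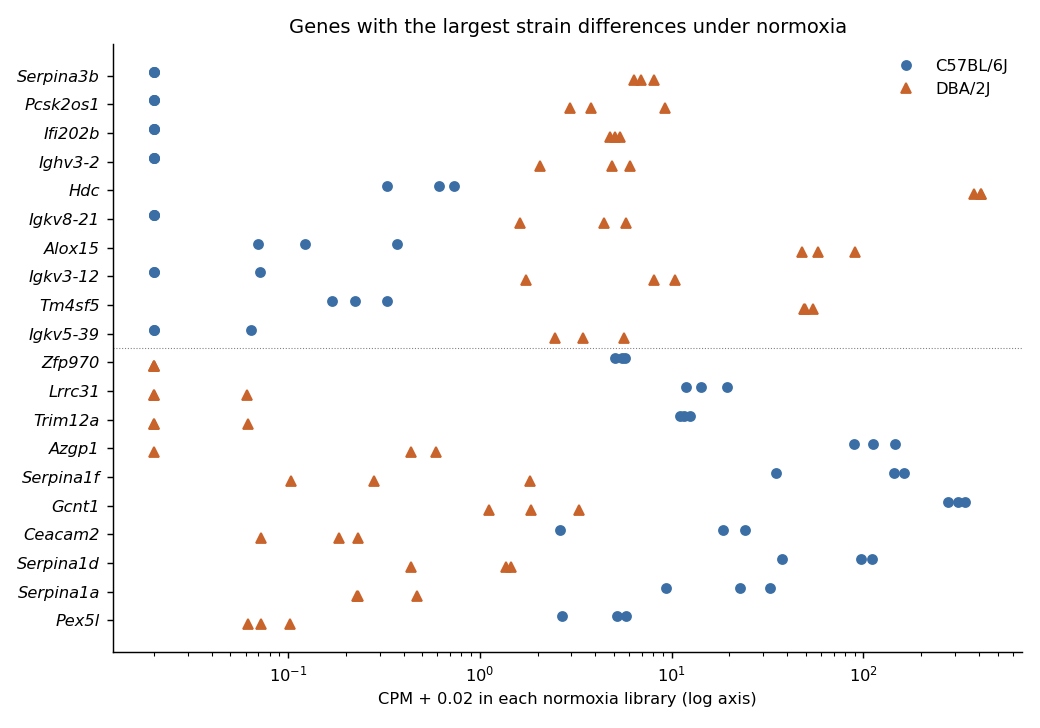
Level of the 10 genes with the largest increases (upper) and the 10 with the largest decreases (lower) in DBA/2J, predicted genes and pseudogene records such as H2-Ea-ps passed over, each point 1 normoxia library, in CPM with a small constant added, on a log axis. The C57BL/6J circles and the DBA/2J triangles do not overlap for any of the genes, which the choice of these genes required, and for several genes 1 strain lies at 0 counts.

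Markers of the nephron segments differed between the strains in opposite directions. Of the early proximal tubule markers 10 higher and 0 lower of 10 genes tested were called, with a median log2 of 1.27. Slc5a12, the proximal sodium-lactate cotransporter, measured 64.4, 52.2 and 115 CPM in C57BL/6J and 392, 392 and 413 CPM in DBA/2J (log2 2.34, SE 0.30, adjusted p = 0.00126). Slc22a6, the organic anion transporter OAT1, measured 715, 404 and 534 CPM in C57BL/6J and 1449, 1495 and 1729 CPM in DBA/2J (log2 1.46, SE 0.19, adjusted p = 0.000121). The DBA/2J libraries were higher throughout. Lrp2 and Cubn, which encode the endocytic receptors megalin and cubilin, rose by 1.23 and 0.96 (adjusted p = 3.28e-05 and 1.45e-05). Slc34a1, the phosphate cotransporter, measured 4521, 2622 and 4081 CPM in C57BL/6J and 6432, 6514 and 7346 CPM in DBA/2J (log2 0.82, SE 0.19, adjusted p = 0.00403), and its adjusted p was 0.136 in the fit of all 48 libraries. The summed level of the list ranged over 4600 to 7490 CPM in C57BL/6J and 13030 to 14660 CPM in DBA/2J. Replicate 2 of C57BL/6J was the lowest of the 6 libraries.

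Of the late proximal tubule (S3) markers 3 higher and 0 lower of 8 were called, with a median of -0.04. These markers had 2 to 3 higher and 0 to 2 lower calls under other settings, and 0 to 2 lower calls without single libraries. Their summed level, mostly from Acy3 and Atp11a, was 3522 to 3617 CPM in C57BL/6J and 5293 to 5536 CPM in DBA/2J, without overlap. Acy3, an aminoacylase, rose by 0.87, and Atp11a, a phospholipid flippase, by 0.85 (adjusted p = 0.000431 and 6.92e-05). Cyp7b1, an oxysterol hydroxylase of this segment that is high in male kidney, was chosen after its values were seen. It measured 30.6, 153 and 132 CPM in C57BL/6J and 22.1, 1.56 and 1.05 CPM in DBA/2J (log2 -3.64, SE 1.37, adjusted p = 0.0944) and missed the threshold in the presence of a wide spread. The fit of all 48 libraries gave it an adjusted p of 9.07e-05 and DESeq2 0.0146, and without replicate 1 of DBA/2J its log2 was -6.38 (adjusted p = 0.0355).

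Distal segments were lower in DBA/2J. In the thick ascending limb 1 higher and 5 lower of 6 markers were called, with a median of -1.02. Umod, uromodulin, measured 6462, 10630 and 9024 CPM in C57BL/6J and 3025, 1899 and 1467 CPM in DBA/2J (log2 -2.06, SE 0.30, adjusted p = 0.000633). Slc12a1, the sodium-potassium-chloride cotransporter NKCC2, measured 1448, 3149 and 2823 CPM in C57BL/6J and 821, 596 and 471 CPM in DBA/2J (log2 -2.0, SE 0.35, adjusted p = 0.00326). In both genes the highest DBA/2J library stayed below the lowest C57BL/6J library. Kcnj1, the potassium channel ROMK, fell by 1.08 and Cldn16, a tight junction claudin, by 0.95 (adjusted p = 1.1e-05 and 0.000208). Cldn10, another claudin, was the exception and rose by 0.48 (adjusted p = 0.00227), a call that was lost in the fit of all 48 libraries. In the distal convoluted tubule 0 higher and 3 lower of 4 were called, including the magnesium channel gene Trpm6 at -1.15 and the thiazide-sensitive cotransporter gene Slc12a3 at -0.68.

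In collecting duct principal cells 0 higher and 5 lower of 5 markers were called (median -0.72), and in intercalated cells 0 higher and 5 lower of 5 (median -0.99). Aqp2, the vasopressin-regulated water channel, measured 173, 251 and 234 CPM in C57BL/6J and 82.9, 103 and 91 CPM in DBA/2J (log2 -1.28, SE 0.13, adjusted p = 2.42e-05). The 3 DBA/2J libraries lay below the 3 C57BL/6J libraries. Slc26a4, the chloride-bicarbonate exchanger pendrin of base-secreting cells, fell by 1.08, and Slc4a1, the exchanger of acid-secreting cells, by 1.33 (adjusted p = 0.000147 and 0.000339).

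Markers of podocytes, endothelium and stroma were lower as well, and those of immune cells in part. In podocytes 0 higher and 5 lower of 5 were called (median -0.90), in endothelium 0 higher and 4 lower of 5 (-0.75), in stroma and mural cells 0 higher and 5 lower of 5 (-1.60) and among immune cell markers 0 higher and 3 lower of 7 (-0.32). Podxl, a sialomucin of podocytes, fell by 0.99 (adjusted p = 0.000101). Acta2, smooth muscle actin, measured 73.7, 47.7 and 46.9 CPM in C57BL/6J and 12.1, 17.8 and 14.7 CPM in DBA/2J (log2 -1.96, SE 0.23, adjusted p = 0.000436). Cd3e, a T cell gene, fell by 1.43 (adjusted p = 0.00356). In the fit of all 48 libraries 2 of the 5 stromal markers were called lower. These are whole slices, in which fewer cells of a type and less RNA per cell cannot be told apart, and CPM are shares of a library.

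**Figure D2:**
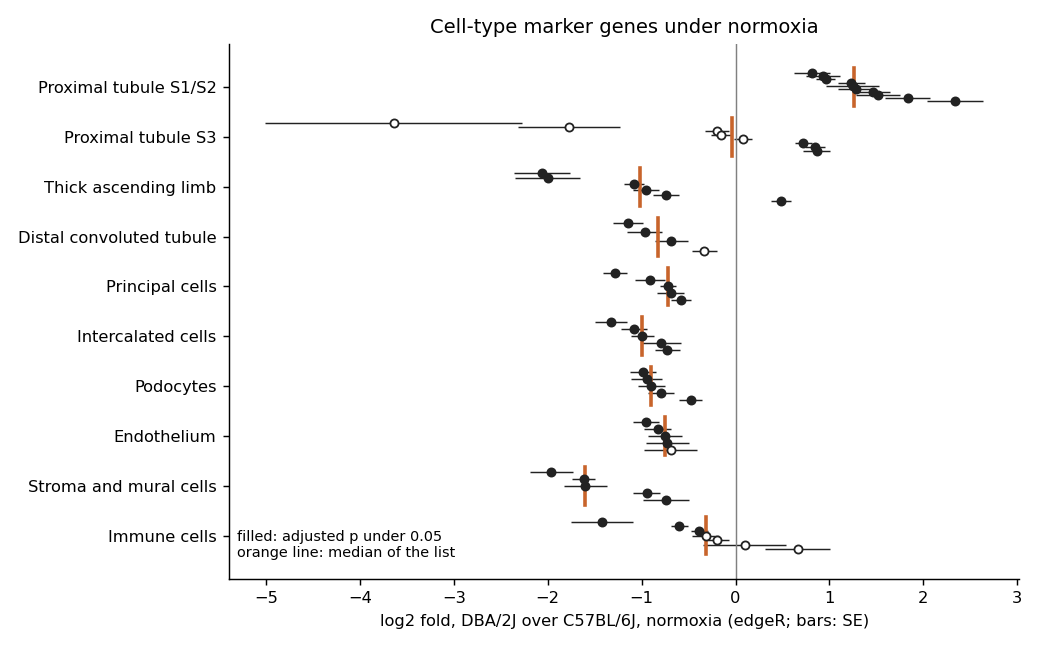
Strain difference of each cell-type marker gene under normoxia, as log2 fold of DBA/2J over C57BL/6J with its SE from edgeR; filled points have an adjusted p under 0.05 and orange lines are list medians. The 10 early proximal tubule markers all lie right of 0, and the distal tubule, podocyte, endothelial and stromal markers lie left of it except Cldn10.

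Enzymes and transporters of the proximal tubule were read beside its markers, whose summed level differed as given above and whose part in the following differences was not tested. For making glucose and using fructose 7 higher and 1 lower of 11 genes were called, with a median of 0.67. G6pc, glucose-6-phosphatase, the last enzyme of gluconeogenesis, measured 233, 139 and 229.6 CPM in C57BL/6J and 748, 860.5 and 913 CPM in DBA/2J (log2 2.03, SE 0.19, adjusted p = 2.57e-05). All DBA/2J libraries were higher than all C57BL/6J libraries. Fbp1, fructose-1,6-bisphosphatase, rose by 1.03 and Pcx, pyruvate carboxylase, by 0.98 (adjusted p = 0.000187 and 0.000246). Pck1, the cytosolic carboxykinase that feeds the pathway, had a log2 of 0.11 and an adjusted p of 0.582. Sord, sorbitol dehydrogenase, was the member that fell, by 0.84 (adjusted p = 0.000194). In the fit of all 48 libraries 4 members were called higher.

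G6pc lies on the plus strand at chr11:101367561-101377903, and its promoter window is shown beside that of Hdc because it carries the TATAAA letters that the Hdc window lacks. Capitals mark TATAAA at position -29 from the start in the RefSeq window chr11:101367466-101367765 (GRCm38.p6, plus strand). Both strands were searched. The RefSeq start lies inside the GENCODE interval of this gene as well.

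G6pc promoter window: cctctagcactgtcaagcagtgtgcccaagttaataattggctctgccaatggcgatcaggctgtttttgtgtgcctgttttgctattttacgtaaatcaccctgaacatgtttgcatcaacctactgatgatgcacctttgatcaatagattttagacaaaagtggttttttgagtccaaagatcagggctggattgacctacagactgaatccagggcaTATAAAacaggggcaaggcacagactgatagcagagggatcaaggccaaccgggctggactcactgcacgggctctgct

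A match describes these letters in the reference and is not a measured binding site.

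Amino acid metabolism had 22 higher and 1 lower of 31 genes called (median 0.50), with 13 higher in the fit of all 48 libraries. Prodh, proline dehydrogenase, rose by 1.29, Gldc, the glycine decarboxylase, by 1.67, Gatm, which makes the creatine precursor guanidinoacetate, by 1.45, and Hpd of tyrosine breakdown by 1.23. Their adjusted p were 8.57e-06, 2.57e-05, 0.000115 and 0.00148. Hdc, described above, belongs to this list.

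Conjugating and other drug-metabolising enzymes outside the P450 family were mostly higher: 20 higher and 4 lower of 25 were called, with a median of 0.91. Sult1c2, a sulfotransferase, measured 54, 49.7 and 59.2 CPM in C57BL/6J and 223, 214 and 197 CPM in DBA/2J (log2 1.93, SE 0.0938, adjusted p = 3.34e-08). Ces1f and Ces2c, carboxylesterases, rose by 1.14 and 1.08 (adjusted p = 3.52e-05 and 0.000141). Ugt1a6a, a glucuronosyltransferase, rose by 1.18 (adjusted p = 0.000149), but 9 Ugt1a genes share their last exons and had nearly the same counts and folds of 1.03 to 1.35, so that single isoforms cannot be separated. Members that fell were Ephx1, Fmo4, Sult1a1 and Aox1, at -0.87, -1.21, -0.62 and -1.08.

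Cytochrome P450 genes went both ways, with 12 higher and 8 lower of 30 called. Cyp4a12a, the androgen-dependent arachidonic acid hydroxylase, measured 91.5, 74.3 and 175 CPM in C57BL/6J and 824, 849 and 929 CPM in DBA/2J (log2 2.90, SE 0.34, adjusted p = 0.000789), and Cyp27b1, which activates vitamin D, measured 2.06, 0.842 and 1.99 CPM in C57BL/6J and 7.86, 6.46 and 6.77 CPM in DBA/2J (log2 2.07, SE 0.26, adjusted p = 7.8e-05). Both were higher in all DBA/2J libraries. Cyp4a14 and Cyp4a10, fatty acid hydroxylases of the PPARA response, fell by 2.07 and 1.71 (adjusted p = 0.000144 and 7.54e-05). Genes of the Cyp4a cluster have close copies, and reads may be divided among them. Among genes that respond to androgen in mouse kidney 9 higher and 0 lower of 12 were called (median 1.45). Slco1a1, an organic anion transporter, measured 142, 84 and 102 CPM in C57BL/6J and 367, 359.6 and 429 CPM in DBA/2J (log2 1.77, SE 0.19, adjusted p = 9.64e-05). Kap, the abundant androgen-regulated kidney protein, was chosen after its values were seen and had a log2 of 0.20 with an adjusted p of 0.331.

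Drug transporters had 16 higher and 6 lower of 30 called, with 10 higher in the fit of all 48 libraries. Abcg2, the efflux pump BCRP, rose by 1.12 and Slc47a1, the cation exporter MATE1, by 0.94 (adjusted p = 1.54e-05 and 4.39e-05). Slco4c1, a basolateral organic anion transporter, measured 4.94, 19.6 and 14.1 CPM in C57BL/6J and 0.983, 0.886 and 1.18 CPM in DBA/2J (log2 -3.67, SE 0.61, adjusted p = 0.0043). It was lower in every DBA/2J library, and Abcc2, the efflux pump MRP2, fell by 0.99 (adjusted p = 5.62e-06). Glutathione transferases and glutathione enzymes went both ways: 6 higher and 11 lower of 26 were called. Gsta2, an alpha-class transferase, measured 86.6, 57.1 and 68.2 CPM in C57BL/6J and 4.54, 4.12 and 3.24 CPM in DBA/2J (log2 -4.19, SE 0.20, adjusted p = 1.08e-06), without overlap. Gsto1 and Gstm2 fell by 1.39 and 1.44, and Gsr, glutathione reductase, rose by 0.94 (adjusted p = 7.89e-07, 1.33e-07 and 2.13e-06).

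Of the genes of the renin-angiotensin system and vitamin D 6 higher and 4 lower of 16 were called. Mme, neprilysin, fell by 1.30 and Nr3c2, the mineralocorticoid receptor, by 0.99, while Anpep, aminopeptidase N of the brush border, rose by 0.99 (adjusted p = 3.89e-05, 2.83e-06 and 2.76e-06). Peroxisomal genes had 12 higher and 3 lower of 25 called. Acox2, which oxidises branched fatty acids and bile acid precursors, measured 56.2, 66.3 and 60.8 CPM in C57BL/6J and 10.6, 10.6 and 10.4 CPM in DBA/2J (log2 -2.57, SE 0.0896, adjusted p = 1.71e-09). Every DBA/2J library was lower, against a rise of Dao, D-amino acid oxidase, by 1.17 (adjusted p = 4.35e-05).

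All 13 protein-coding genes of the mitochondrial chromosome were lower in DBA/2J (0 higher and 13 lower of 13, median -1.28). All genes of the mitochondrial chromosome together held 22.8, 25.6 and 23.2% of the counts in C57BL/6J and 12.8, 12.4 and 11.8% in DBA/2J. The groups did not overlap. mt-Nd1, a subunit of complex I, measured 28800, 33070 and 29860 CPM in C57BL/6J and 15840, 13900 and 13650 CPM in DBA/2J (log2 -1.11, SE 0.16, adjusted p = 0.000152), and mt-Co1, of complex IV, measured 66920, 81180 and 69360 CPM in C57BL/6J and 48260, 44260 and 42010 CPM in DBA/2J (log2 -0.73, SE 0.18, adjusted p = 0.00497). For 7 of the genes the log2 was between -1.28 and -0.56. The other 6 (mt-Co2, mt-Atp8, mt-Atp6, mt-Co3, mt-Nd3 and mt-Nd4l) lie side by side and had values between -4.60 and -2.98 at far lower levels. These 6 are uncertain, since 7 pseudogenes on chromosome 1, chr1:24611535-24616197, are close copies of mitochondrial sequence and held 13 to 269 counts each in a library. The nuclear genes of the respiratory chain were near 0 as a group, with 7 higher and 14 lower of 80 called and a median of 0.00. These genes had 4 to 10 higher calls without single libraries and 6 to 8 under other settings. Their count of lower calls was 5 without replicate 2 or replicate 3 of DBA/2J, 21 without its replicate 1, 6 and 9 without replicates 1 and 3 of C57BL/6J, and 5 in the fit of all 48 libraries.

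**Figure D3:**
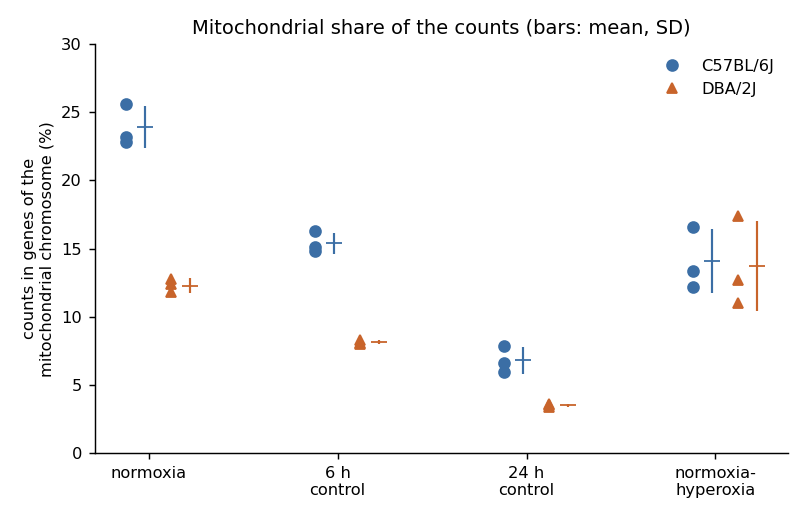
Share of a library's counts in genes of the mitochondrial chromosome, 1 point per library, with the mean and SD (n = 3) of each strain and condition. Under normoxia the C57BL/6J libraries lie at 22.8 to 25.6% and the DBA/2J libraries at 11.8 to 12.8%, the controls show a lower share in DBA/2J at both times, and the strains overlap under normoxia-hyperoxia.

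Of the genes of mitochondrial fatty acid oxidation 5 higher and 4 lower of 20 were called, near or under the shares over all genes, with 3 higher without replicate 2 or 3 of C57BL/6J or replicate 2 of DBA/2J. Acaa2, the last enzyme of the spiral, fell by 1.5 and the coactivator gene Ppargc1a by 0.81, while Ppara, the receptor that drives the pathway, rose by 0.68 (adjusted p = 1.46e-07, 0.000326 and 0.000633). Of the glycolytic genes 3 higher and 8 lower of 18 were called, with Hk1 at -1.08 and Pkm at -0.77. In cholesterol synthesis 10 higher and 2 lower of 24 were called. Nsdhl, a sterol dehydrogenase, rose by 1.70, and Sc5d, a sterol desaturase, fell by 1.14 (adjusted p = 2e-06 and 1.1e-06).

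Of the 18 tubular injury genes tested, 7 were higher and 5 were lower, so the list did not point one way. Havcr1, the kidney injury molecule KIM-1, measured 1.31, 1.04 and 1.27 CPM in C57BL/6J and 5.08, 2.87 and 3.66 CPM in DBA/2J (log2 1.65, SE 0.26, adjusted p = 0.000316) and was higher in every DBA/2J library at a low level. Tnfrsf12a, the TWEAK receptor, rose by 1.16 and Cdkn1a, the cell cycle inhibitor p21, by 1.13 (adjusted p = 1.94e-05 and 6.94e-06). Anxa2, Spp1 and Clu fell by 1.02, 0.94 and 1.03 (adjusted p = 4.12e-06, 3.65e-05 and 0.000313). Lcn2, the injury marker NGAL, measured 1.27, 3.42 and 3.67 CPM in C57BL/6J and 2.78, 0.521 and 1.09 CPM in DBA/2J and did not pass (log2 -0.90, adjusted p = 0.282), except without replicate 1 of DBA/2J (log2 -1.76, adjusted p = 0.0278). Of the immediate early genes 3 higher and 3 lower of 14 were called. The counts were 0 and 2 without replicate 2 of DBA/2J, 1 and 3 without replicate 1 of C57BL/6J, and 3 and 1 without replicate 2 of C57BL/6J or in the fit of all 48 libraries. Fos had a log2 of 0.67 with an adjusted p of 0.216.

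The unfolded protein response, which raises chaperones and degradation factors of the endoplasmic reticulum, had 10 higher and 0 lower of 22 genes called and a median of 0.21. The most expressed of the 5 equal groups of all genes had a median of 0.15, and the list was not matched for expression. Sel1l, a scaffold of the degradation complex, measured 109, 104 and 103 CPM in C57BL/6J and 163, 163 and 188 CPM in DBA/2J (log2 0.67, SE 0.0805, adjusted p = 4.14e-05). Calr, calreticulin, measured 655, 618 and 656 CPM in C57BL/6J and 1004, 1004 and 1068 CPM in DBA/2J (log2 0.64, SE 0.0999, adjusted p = 0.000273), and both were higher in every DBA/2J library. Hspa5, the chaperone BiP, and Ddit3, the stress factor CHOP, had log2 values of 0.27 and 0.02 (adjusted p = 0.131 and 0.905). Without replicate 3 of C57BL/6J the count of higher members was 6.

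Of the hypoxia-response genes 5 higher and 5 lower of 20 were called, near the shares over all genes given above, and 6 and 3 in the fit of all 48 libraries. The summed level of the list was 2850 to 3371 CPM in C57BL/6J and 5156 to 5288 CPM in DBA/2J, without overlap, and most of it came from Ndrg1. Pdk1 and Pfkfb3, regulators of glucose use, and the carbonic anhydrase gene Car9 had log2 values of -0.85, -1.0 and -1.14, and Ndrg1 had 1.03 (adjusted p = 2.51e-06, 1.39e-05, 8.2e-05 and 7.89e-05). Vegfa had -0.16 and an adjusted p of 0.195. NRF2 targets had 3 higher and 5 lower of 15 called, and 5 higher without replicate 1 of C57BL/6J. Nqo1, a quinone reductase, fell by 0.95 and Hmox1, heme oxygenase, rose by 0.78 (adjusted p = 1.38e-05 and 1.73e-05). Among clock genes 4 higher and 6 lower of 18 were called. Npas2, a partner of the clock activator, measured 9.32, 9.95 and 11 CPM in C57BL/6J and 30.1, 30.3 and 31.5 CPM in DBA/2J (log2 1.57, SE 0.0917, adjusted p = 1.84e-07). Nfil3 rose by 1.5, while Dbp, Per3 and Nr1d1 fell by 1.60, 1.08 and 0.89 (adjusted p = 0.000128, 0.0359, 0.000134 and 6.26e-05). The time of day at which slices were made was not given in the sources used here.

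Lysosomal genes had 15 higher and 3 lower of 23 called, with a median of 0.52, and the list includes Gcnt1, which is a Golgi enzyme. Arsb, which breaks down glycosaminoglycans, rose by 1.26 and the membrane protein gene Lamp1 by 0.90 (adjusted p = 9.01e-06 and 6.25e-05). Idua, the iduronidase, fell by 1.43 (adjusted p = 1.46e-05). In metal handling 8 higher and 4 lower of 16 were called, including Slc11a2, the iron importer DMT1, at 1.01, and the metallothionein genes Mt1 and Mt2 at -0.51 and -0.84.

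In the major histocompatibility complex 7 higher and 18 lower of 30 genes were called, with a median of -0.58. H2-Q10, a secreted class I molecule, measured 0.219, 0.743 and 0.51 CPM in C57BL/6J and 21.9, 25.9 and 28.9 CPM in DBA/2J (log2 5.68, SE 0.23, adjusted p = 1.36e-08), and was high in DBA/2J without overlap. H2-Q1 had 3 counts over the C57BL/6J libraries, and its ratio of DBA/2J to C57BL/6J was 157 (95% counting interval 53.4 to 763). The H2-Ea pseudogene record, H2-Ea-ps, was chosen after its values were seen. It was at 0 in all C57BL/6J libraries and at 77.5, 95.9 and 95.6 CPM in DBA/2J, at least 1860-fold higher. As background, the b haplotype of C57BL/6J does not express this class II chain and the d haplotype of DBA/2J does. Class II genes differed among themselves. H2-Ab1 was at -0.90, H2-Aa at -0.64 and Cd74, the invariant chain, at -0.57 (adjusted p = 6.98e-06, 0.000171 and 0.000532). H2-Oa, H2-DMb1 and H2-Ob had absolute log2 values over 1. H2-K1, a classical class I gene, fell by 0.86 and H2-D1 rose by 0.34 (adjusted p = 1.2e-05 and 0.00743). Class I genes are near-identical copies that differ between haplotypes, reads of both strains were counted on the C57BL/6J reference, and the effect of this was not tested.

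Among windows of equal length along the genome, 3 shared the highest count of genes over a log2 of 1, with 13 each. In the region of the complex they were chr17:34000001-35000000 with 51 genes tested and chr17:35000001-36000000 with 56. The third, chr6:70000001-71000000, had 21 tested, and its 13 genes were immunoglobulin kappa segments, all higher in DBA/2J. How the filter on low counts bears on such segments is given below. The region of the complex also holds the complement genes C4a and C4b. C4a, a sex-limited C4 copy, measured 1.53, 2.62 and 2.45 CPM in C57BL/6J and 71.2, 62.2 and 73.3 CPM in DBA/2J (log2 4.94, SE 0.15, adjusted p = 1.08e-09), and every DBA/2J library was higher. C4b had a log2 of 4.35 (adjusted p = 0.00128), and because the 2 genes are near-identical their counts may be divided between them. Of the complement list 5 higher and 10 lower of 19 were called. C3, the central component, rose by 1.46 and C2 by 1.62, while C7 and Cd59a, an inhibitor of the membrane attack complex, had -2.54 and -1.15 (adjusted p = 2.34e-05, 1.12e-05, 9.73e-05 and 1.42e-06). In the fit of all 48 libraries 6 were called lower.

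Interferon-stimulated genes were lower in DBA/2J, with 1 higher and 17 lower of 33 called and a median of -0.68. Ifit1, which binds viral RNA, measured 7.70, 7.18 and 7.29 CPM in C57BL/6J and 2.09, 2.29 and 2.61 CPM in DBA/2J (log2 -1.70, SE 0.16, adjusted p = 6.05e-06). Ifih1, the RNA sensor MDA5, measured 14.3, 15.8 and 14.3 CPM in C57BL/6J and 4.58, 6.30 and 6.43 CPM in DBA/2J (log2 -1.40, SE 0.13, adjusted p = 6.98e-06). Neither gene overlapped between the strains. Xaf1 was the member that rose, by 0.93 (adjusted p = 0.0023). The summed level of the list was 427 to 549 CPM in C57BL/6J and 257 to 354 CPM in DBA/2J. The Ifi200 family, DNA sensors encoded together on chromosome 1, had 8 lower and 1 higher of 11 tested, with a median of -1.47. The member that rose was Ifi202b, described above.

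Immunoglobulin genes were the reverse. Of 71 segments tested, 49 were higher, none was lower at the adjusted threshold in edgeR, and the median was 3.77. The filter on low counts keeps a segment that passes in a single strain. Segments near the floor in C57BL/6J thus entered through their DBA/2J counts, and the count and median depend on this entry. Igkc, the kappa constant region, was chosen after its values were seen, as was Igha, the constant region of IgA. Igkc measured 21.8, 14.7 and 24.7 CPM in C57BL/6J and 126, 407 and 565 CPM in DBA/2J (log2 4.12, SE 0.69, adjusted p = 0.00903), and Igha measured 26.4, 16.2 and 24.4 CPM in C57BL/6J and 162, 540.3 and 778 CPM in DBA/2J (log2 4.41, SE 0.73, adjusted p = 0.00838). The strains did not overlap, although the DBA/2J libraries varied, with replicate 1 lowest in both genes. The B cell gene Cd79a had a log2 of 0.66 and an adjusted p of 0.133. Which immunoglobulin segments a strain carries differs between haplotypes, and the effect of the reference on these counts was not tested.

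Several genes with well-known variants in these strains were examined. Alad and Glo1 lie in segments that are duplicated in DBA/2J. Alad, the second enzyme of heme synthesis, measured 68.1, 49 and 57.5 CPM in C57BL/6J and 170, 164 and 155 CPM in DBA/2J (log2 1.45, SE 0.11, adjusted p = 2.79e-06). Glo1, glyoxalase, measured 63.9, 58.1 and 62.8 CPM in C57BL/6J and 138, 136 and 133 CPM in DBA/2J (log2 1.11, SE 0.0758, adjusted p = 5.94e-07). Both genes were higher in each DBA/2J library than in any C57BL/6J library.

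Nnt, the transhydrogenase whose gene has an internal deletion in C57BL/6J, measured 143, 134 and 134 CPM in C57BL/6J and 198, 209.5 and 209.7 CPM in DBA/2J (log2 0.55, SE 0.0764, adjusted p = 0.000121), and a count over the whole gene does not show the deletion. Ahr, the aryl hydrocarbon receptor, has a low-affinity allele in DBA/2J and measured 10.4, 14 and 10.7 CPM in C57BL/6J and 7.86, 8.96 and 10.5 CPM in DBA/2J (log2 -0.40, SE 0.14, adjusted p = 0.0357). Its groups overlapped, and its adjusted p was 0.0612 in DESeq2, 0.0927 in the fit of all 48 libraries, 0.165 without replicate 2 of C57BL/6J, and 0.143 and 0.103 without replicates 1 and 2 of DBA/2J. Ren1 measured 104, 69.7 and 105 CPM in C57BL/6J and 81.5, 36.8 and 91.2 CPM in DBA/2J and did not pass (log2 -0.44, adjusted p = 0.42). DBA/2J carries the close copy Ren2, whose reads may be counted with Ren1. Gpnmb and Hc, with known loss-of-function variants in DBA/2J, were too low to test, at 0.262, 0.198 and 0.204 CPM in C57BL/6J and 0, 0 and 0.042 CPM in DBA/2J for Gpnmb and 0, 0 and 0.204 CPM in C57BL/6J and 0.328, 0.104 and 0.168 CPM in DBA/2J for Hc.

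Kallikreins form another cluster. Of 9 kallikrein genes of the Klk1 family tested, 8 were lower and none higher in edgeR, with a median of -2.49. Klk1, the renal kallikrein that releases kinins, was chosen after its values were seen and measured 3534, 3169 and 2769 CPM in C57BL/6J and 422, 597 and 716 CPM in DBA/2J (log2 -2.49, SE 0.18, adjusted p = 1.5e-06). All DBA/2J libraries were far lower. The family consists of close copies, and reads may be divided among them. The window chr1:88000001-89000000, which holds the Ugt1a genes, had 12 of 13 tested genes over a log2 of 1, with 10 higher. The higher ones include the 9 Ugt1a genes, which share exons and had nearly the same counts, so they are not separate measurements.

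The strain difference was then set beside those in the other conditions. In 6 h controls 3713 genes (23.5%) were called, 12.6% of those tested higher and 10.9% lower. In 24 h controls 3755 were called (23.5%, with 13.1% higher and 10.4% lower), and under normoxia-hyperoxia 3286 (20.3%, with 11.6% higher and 8.67% lower). The biological coefficient of variation was 10.6% in the normoxia libraries and 12.1 to 13.9% in the other 3 conditions, so the fits differ in the differences they can detect. Without replicate 3 of C57BL/6J or replicate 2 or 3 of DBA/2J the 6 h count was 2216 to 2439, and without replicate 3 of C57BL/6J or of DBA/2J the 24 h count was 2394 and 2382. Of genes tested in both and called in both, 3030 of 3065 had the same direction in normoxia and 6 h controls, which is 39.3% of the normoxia calls and 84.1% of the 6 h calls. For 24 h controls it was 2413 of 2565 (32.4% and 68.2%), and for normoxia-hyperoxia 2099 of 2263 (27.4% and 67.7%). Over 14591 genes tested everywhere, 1152 were called in the same direction in all 4 conditions, with 752 higher and 400 lower in DBA/2J. Genes called under normoxia and in none of the others numbered 3282, which by itself does not show that their difference changed.

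Differences between the strain differences were tested directly, over 12 libraries at a time. Against 6 h controls 616 of 16819 genes (3.66%) differed, 312 with a more positive value under normoxia (1.86%) and 304 with a more negative one (1.81%). Against 24 h controls 2956 (17%) differed, 1761 and 1195 (10.1% and 6.88%), and against normoxia-hyperoxia 3134 (18.2%), 1893 and 1241 (11% and 7.2%). Without single libraries the first count ranged from 241 to 1125, and 9 of the 12 libraries moved it by over 1.5 times. The first count was also 1181 in DESeq2 and 1536 without a filter on low counts. With a replicate block within strain, chosen after seeing the data, it was 1462. The second was 1860 and 1937 without replicate 3 of the C57BL/6J or the DBA/2J 24 h controls. The split depended on the scaling, the genes included and single libraries. The share of more positive calls was 50.6, 59.6 and 60.4% in the 3 comparisons. Without single libraries it ranged from 37.5 to 63.2, 34.9 to 64.2 and 53.6 to 62.9%. Against 24 h controls it was 39.5% without replicate 3 of the C57BL/6J 24 h controls and 39.6, 34.9 and 37.2% without replicates 1, 2 and 3 of the DBA/2J 24 h controls. With mitochondrially encoded genes removed it was 44.3% against 24 h controls, with all 48 libraries in 1 fit 63.3, 47 and 48.5%, and without a filter on low counts 31.6, 49.7 and 38.8%. In 370 genes all 3 differences passed in 1 direction, 211 more positive and 159 more negative under normoxia. The 3 tests share the same normoxia libraries, so their directions are not independent.

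**Figure D4:**
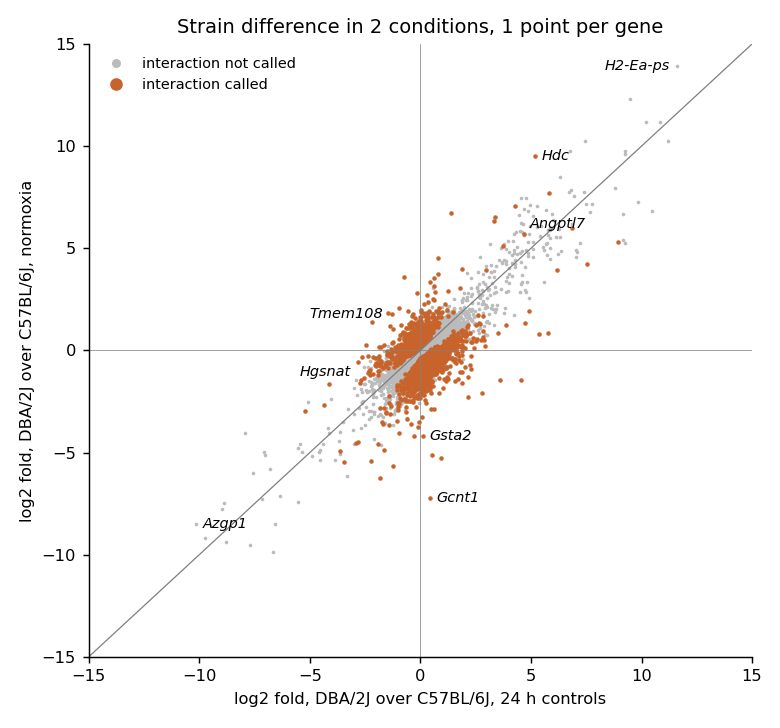
Strain difference of each gene under normoxia (vertical) against that in 24 h controls (horizontal), both as log2 fold of DBA/2J over C57BL/6J; orange points have a called difference between the 2 and the line marks equal values. Azgp1 and Angptl7 had no called difference (adjusted p = 0.667 and 0.114), while Gcnt1 and Gsta2 lie far below the line and Hdc and Tmem108 above it.

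For Gcnt1 all 3 tests of the difference passed. Its level in C57BL/6J was 277, 313 and 339 CPM under normoxia, 107, 77.1 and 111 CPM in 6 h controls, 19.2, 23.6 and 23.1 CPM in 24 h controls and 13.5, 17.7 and 13.2 CPM under normoxia-hyperoxia. In DBA/2J it was 3.27, 1.82 and 1.09 CPM under normoxia, 58.6, 52.2 and 45.8 CPM in 6 h controls, 28.3, 30.4 and 33.1 CPM in 24 h controls and 29.5, 34.9 and 37.9 CPM under normoxia-hyperoxia. The normoxia libraries of C57BL/6J stood above all others, and those of DBA/2J were low. The strain differences of -7.24, -1.05, 0.41 and 1.10 in that order differed by -6.11, -7.57 and -8.23 (adjusted p = 3.43e-06, 5.01e-07 and 9.38e-07).

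Hdc went the other way. Its level in DBA/2J was 410.5, 379 and 409.8 CPM under normoxia, 207, 215 and 244 CPM in 6 h controls, 49.2, 30.9 and 45.7 CPM in 24 h controls and 47.2, 37.9 and 29.2 CPM under normoxia-hyperoxia. In C57BL/6J it was 1.45, 2.42 and 2.43 CPM, 0.946, 1.39 and 0.807 CPM and 2.29, 2.07 and 2.42 CPM in the other 3 conditions. Every DBA/2J library was above every C57BL/6J library of its condition, and the distance was largest under normoxia. The strain difference exceeded that of the 6 h controls by 3.02 and that under normoxia-hyperoxia by 5.64 (adjusted p = 0.000802 and 9.38e-07). Against 24 h controls the difference was 4.40 with an adjusted p of 0.000107.

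Gsta2 was lower in DBA/2J under normoxia but had 88.4, 114 and 119 CPM in C57BL/6J and 132, 114 and 116 CPM in DBA/2J in 24 h controls, a difference of strain differences of -4.21 (adjusted p = 3.12e-06). Hgsnat, a lysosomal acetyltransferase of heparan sulfate breakdown, fell by 0.56 under normoxia and by 2.84 in 24 h controls (adjusted p of the difference = 1.53e-08). C4a had a strain difference of 4.94 under normoxia and 0.66 under normoxia-hyperoxia (adjusted p of the difference = 1.49e-06). Mlycd, which breaks down malonyl-CoA, measured 55.2, 43.4 and 47.3 CPM in C57BL/6J and 48.8, 48.3 and 52.1 CPM in DBA/2J under normoxia. With hyperoxia added it measured 12.6, 14.5 and 13.8 CPM in C57BL/6J and 76.2, 80.1 and 76.7 CPM in DBA/2J. The strains overlapped under normoxia and not under normoxia-hyperoxia, and the difference was -2.31 (adjusted p = 7.89e-07).

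S1pr3, a receptor for sphingosine-1-phosphate, measured 16.8, 14.8 and 13 CPM in C57BL/6J and 3.89, 5.84 and 5.84 CPM in DBA/2J under normoxia (log2 -1.56, SE 0.16, adjusted p = 1.32e-05), against a strain difference of 0.75 in 6 h controls (adjusted p of the difference = 0.000802). Mpped1, a metallophosphoesterase, had 0.82 under normoxia and 5.33 in 6 h controls (adjusted p of the difference = 0.00129). Its normoxia value alone had an adjusted p of 0.0901 in the fit of all 48 libraries. Tmem108, a transmembrane protein, was higher in DBA/2J under normoxia, by 1.2, with a value of -1.36 in 24 h controls (adjusted p of the difference = 3.12e-06). In contrast Alad, Glo1, Angptl7, Atp4a and Klk1 were called in the same direction in all 4 conditions. For Alad the 4 log2 values were 1.45, 1.52, 1.5 and 1.69 in normoxia, 6 h controls, 24 h controls and normoxia-hyperoxia.

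The gene groups were compared in the same way. The early proximal tubule list had 10 of 10 genes higher in DBA/2J under normoxia, 5 in 6 h controls, 8 in 24 h controls and 10 under normoxia-hyperoxia. The 5 became 3 without replicate 3 of the DBA/2J 6 h controls and 1 in the fit of all 48 libraries, and the 8 became 5 without replicate 1 or 3 of the DBA/2J 24 h controls and 3 without a filter on low counts. In edgeR the difference from the 6 h controls passed for none of the 10 (median 0.75), with 5 more positive at an unadjusted p under 0.05. DESeq2 called 4 of them, the fit without a filter on low counts 5, the replicate block within strain, chosen after seeing the data, 7, and 3 passed without replicate 2 of the C57BL/6J 6 h controls or replicate 3 of C57BL/6J normoxia. None passed in edgeR or DESeq2 against 24 h controls (median -0.09), and 1 was more positive at an unadjusted p under 0.05. Without a filter 1 was more positive and 3 were more negative, 2 were more negative without replicate 2 of the DBA/2J 24 h controls, and 1 was more positive without replicate 3 of C57BL/6J normoxia. Against normoxia-hyperoxia 1 was more negative under normoxia, with 4 in DESeq2, 6 without a filter, 0 in the fit of all 48 libraries, 4 without replicate 2 of C57BL/6J normoxia and 2 without replicate 3 of either strain under normoxia-hyperoxia. The thick ascending limb had 5 of 6 lower under normoxia, 3 in 6 h controls and 0 in the other conditions by edgeR. The 3 became 1 in the fit of all 48 libraries and 2 without replicate 3 of the C57BL/6J or any DBA/2J 6 h control. Under normoxia-hyperoxia 1 was lower without replicate 3 of C57BL/6J, and 1 was higher without its replicate 2 or without a filter. The difference itself passed for 1, 1 and 2 members, more negative under normoxia, for 5 each time without a filter on low counts, and for 4, 1 and 4 with the replicate block within strain. The first was lost in the fit of all 48 libraries and without replicate 3 of the C57BL/6J 6 h controls, any DBA/2J 6 h control, or replicate 2 or 3 of either strain under normoxia. The second count was 3 without replicate 1 of the DBA/2J 24 h controls and 0 without replicate 1 of DBA/2J normoxia, and the third was 5 without replicate 2 of C57BL/6J normoxia-hyperoxia. For the distal convoluted tubule 4 of 4 members had a more negative value under normoxia than in 24 h controls, with a median difference of -1.5. Against 6 h controls and normoxia-hyperoxia edgeR called 0 of 4 (medians -0.53 and -0.74), 3 each were more negative at an unadjusted p under 0.05, DESeq2 called 0 and 3, all 4 passed both times without a filter, and 2 each with the replicate block within strain. Without replicate 3 of C57BL/6J normoxia-hyperoxia 3 passed in the latter comparison, and 1 without replicate 1 of DBA/2J normoxia-hyperoxia or replicate 3 of C57BL/6J normoxia. For S3 markers 5 of 8 were more negative under normoxia than in 24 h controls (median -1.10), with none in the fit of all 48 libraries and 3 without replicate 1 of the C57BL/6J 24 h controls. In the other comparisons 1 was more negative against 6 h controls (median -0.69), and 1 was more positive and 2 were more negative against normoxia-hyperoxia (median -0.51). The first count was 0 to 6 under other settings, with 6 without a filter and 4 in DESeq2, and 0 to 3 without single libraries. The counts against normoxia-hyperoxia were 0 to 1 and 0 to 4 under other settings.

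Of the unfolded protein response the strain differences were more positive under normoxia for 14 of 22 genes against 24 h controls, with 1 more negative (median 0.54), and for 12 against normoxia-hyperoxia (median 0.55). Against 6 h controls it was 5 (median 0.47), with 2 with RLE size factors, without mitochondrially encoded genes or in the fit of all 48 libraries, 8 with the replicate block within strain, and 0 to 3 without single libraries except replicate 1 of C57BL/6J normoxia (4) and replicate 1 of the C57BL/6J 6 h controls (9). Against 24 h controls 6 genes were more positive in the fit of all 48 libraries, 6 without replicate 3 of either strain's 24 h controls, and 9 without replicate 2 of the DBA/2J 24 h controls or replicate 3 of C57BL/6J normoxia. Against normoxia-hyperoxia 6 passed in that fit, and 6 without replicate 1 of C57BL/6J, replicate 1 of DBA/2J or replicate 2 of DBA/2J of that condition, and 7 without replicate 2 of C57BL/6J normoxia. Of the interferon-stimulated genes 0 higher and 24 lower of 33 were called in 6 h controls and 0 higher and 31 lower of 33 in 24 h controls. Replicate 2 of the C57BL/6J 6 h controls stood apart, with summed levels of 926, 2795 and 1151 CPM in the C57BL/6J 6 h controls and 514 to 589 CPM in those of DBA/2J. It stood apart as well in the NRF2 targets, at 6251 CPM against 3545 and 3616 CPM, and in the early proximal tubule list, at 2550 CPM against 5192 and 4448 CPM. Without it 1 higher and 24 lower were called in 6 h controls, and the lower calls were 14, 12 and 12 without replicates 1, 2 and 3 of DBA/2J and 6 without a filter on low counts. Against 24 h controls, 18 of the 33 had a more positive strain difference under normoxia (median 1.09). That count was 7 in the fit of all 48 libraries, 7 without replicate 3 of the DBA/2J 24 h controls, 10 without their replicate 1 or replicate 3 of DBA/2J normoxia, and 11 without replicate 3 of C57BL/6J normoxia. None of the 33 was called by edgeR against 6 h controls (median 0.78), with 6 more positive at an unadjusted p under 0.05, 1 called by DESeq2, 4 with the replicate block within strain and 19 without a filter on low counts. Against normoxia-hyperoxia 1 was more positive and 4 were more negative (median -0.18), and these counts were 0 to 4 and 1 to 5 without single libraries and 0 to 3 and 2 to 10 under other settings, with 10 more negative without a filter or with the replicate block within strain. The summed level of the list in 24 h controls was 1889 to 2710 CPM in C57BL/6J and 728 to 850.2 CPM in DBA/2J, above the normoxia values in both strains.

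Genes of the major histocompatibility complex had a more negative value under normoxia than under normoxia-hyperoxia for 13 of 30 (median -0.64), as did 5 of 7 immune cell markers. The complex was divided against 24 h controls, with 8 more positive and 3 more negative (median 0.30), and against 6 h controls 0 were more positive and 1 more negative (median -0.03). The latter counts were 0 to 2 and 0 to 6 under other settings, with 6 more negative without a filter, and 0 to 1 and 1 to 4 without single libraries. The 8 became 3 to 5 without replicate 3 of the C57BL/6J 24 h controls, replicate 1 or 3 of the DBA/2J 24 h controls, any C57BL/6J normoxia library, or replicate 2 or 3 of DBA/2J normoxia. The summed level of the immune cell markers was 125 to 152 CPM in C57BL/6J and 98.8 to 118 CPM in DBA/2J under normoxia, against 126 to 156 and 246 to 298 CPM in the 2 strains under normoxia-hyperoxia. Of NRF2 targets 9 of 16 had a more positive value under normoxia than in 24 h controls, with 4 in the fit of all 48 libraries, 5 without replicate 3 of the C57BL/6J 24 h controls and 6 without replicate 2 or 3 of the DBA/2J 24 h controls. None of the 16 was called by edgeR against 6 h controls, with 3 more positive and 1 more negative at an unadjusted p under 0.05 and the same counts called by DESeq2. Against normoxia-hyperoxia 4 were more positive and 3 more negative, and each of these counts was 1 to 4 without single libraries. Of the mitochondrial genes 8 of 13 had a more negative value under normoxia than under normoxia-hyperoxia. In the latter all genes of the mitochondrial chromosome held 12.2, 16.6 and 13.4% of the counts for C57BL/6J and 17.4, 12.7 and 11% for DBA/2J. The second of these DBA/2J libraries held 5619309 counts, the fewest among the libraries of these 4 conditions. The 8 include 5 of the 6 genes called uncertain above. In the other comparisons 4 of 13 were more negative against 6 h controls (median 0.07) and 1 against 24 h controls (median -0.14), all among those 6. The 4 became 2 without replicate 1 or 2 of the DBA/2J 6 h controls and 1 in the fit of all 48 libraries. The count of 8 mitochondrial genes was 5 without replicate 2 or replicate 3 of DBA/2J normoxia, and 5 without replicate 1 or replicate 3 of C57BL/6J normoxia-hyperoxia.

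**Figure D5:**
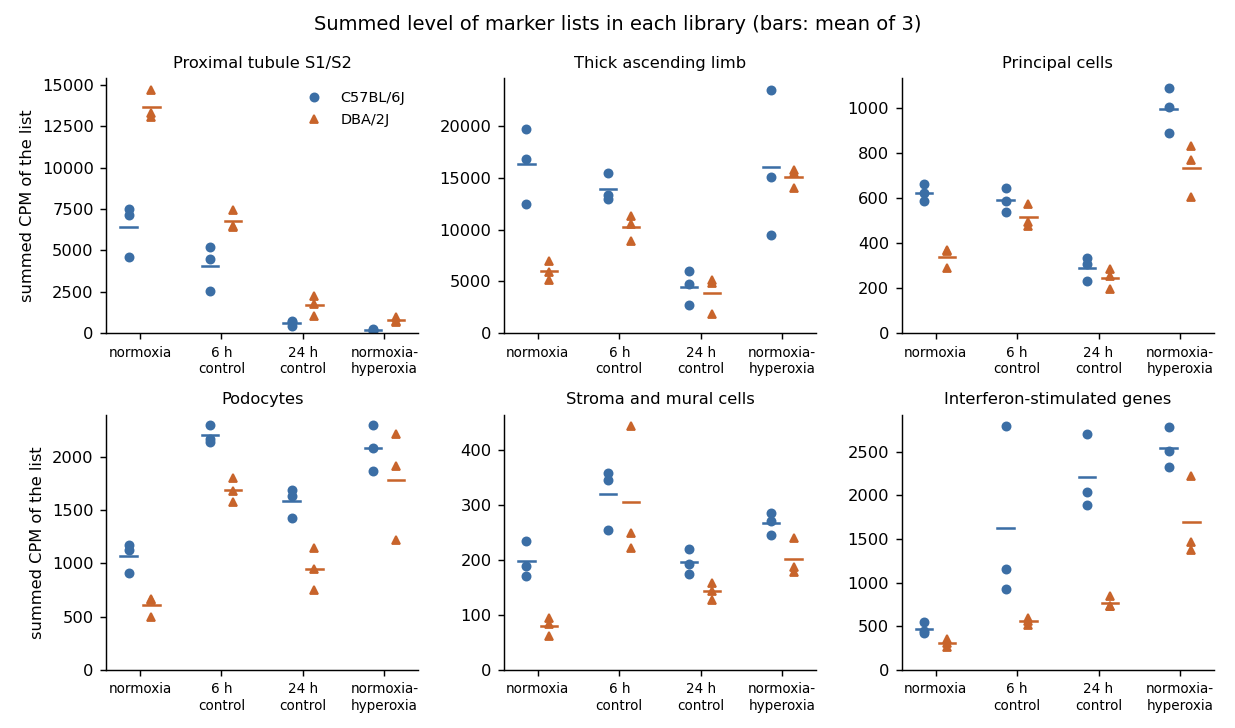
Summed CPM of 6 gene lists in each library of 4 conditions, with the mean of 3 libraries as a bar for C57BL/6J (circles) and DBA/2J (triangles). The early proximal tubule list lies at 4600 to 7490 CPM in C57BL/6J and 13030 to 14660 CPM in DBA/2J under normoxia, where each strain has its highest mean, and the thick ascending limb list separates the strains under normoxia with DBA/2J lower.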

How the data were processed

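Total RNA of kidney slices was isolated with a Qiagen kit, and stranded mRNA libraries were prepared with Illumina's ligation chemistry, per the labels' protocols. The authors deposited 1 table of raw counts of reads per gene for 55487 Ensembl gene IDs and all 48 libraries. The tools named, per the submitters' processing notes, are bcl2fastq 2.20.0, FastQC 0.11.8, STAR 2.7.9a and featureCounts 1.5.1, with the build GRCm38. Their settings, the annotation release, the use of strand and the treatment of reads with several matches are not given in the sources used here. Antisense and overlapping genes are therefore uncertain. Gene symbols were found for 55141 IDs, and positions come from GENCODE M21 (GRCm38).

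Groups were taken from the labels. Genes with low counts were removed with edgeR's filter by group, counts were scaled by TMM (factors 0.979 to 1.03), and strains were compared with edgeR 4.0.16 (R 4.3.3, limma 3.58.1) by the robust quasi-likelihood F test at a Benjamini-Hochberg adjusted p under 0.05 over all genes tested. The normoxia fit had 6 libraries and 4 residual degrees of freedom, and each test of a difference of strain differences had 12 libraries and 8. SE were derived from the fold and the F statistic. CPM are counts scaled to the library total, mitochondrial counts included, and are not TMM-scaled. Intervals of ratios and floors cover counting error only. The scripts' recovery of known changes was tested on simulated data. Alternatives were RLE size factors, no filter, DESeq2 1.42.0, removal of mitochondrially encoded genes, a joint fit of the 48 libraries, a replicate block and omission of single libraries, with a replicate block within strain added after seeing the data. The comparisons, gene lists and tests were chosen with earlier results of these data known. Named genes were the 10 largest changes each way (adjusted p under 0.05, mean log2 CPM of at least 1, no overlap of strains, predicted genes and pseudogene records passed over), up to 3 called members of each of 38 lists by p-value, the 4 smallest p-values of each difference of strain differences, and 15 genes fixed by name. Other list members given as examples, and genes so described in the text, were chosen after their values were seen. Some genes that these rules name are not reported here. Promoter windows are RefSeq's, on GRCm38.p6.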

Additional observations from a re-analysis of the deposited data

Results flagged for a closer look

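By a direct test in edgeR the strain difference under normoxia differed from that in another condition for 616, 2956 and 3134 genes, as given above. The 9 genes named here are those with the smallest p-values under the naming rule. Values are the log2 strain difference under normoxia minus that in the other condition. Hdc had 3.02 against 6 h controls (SE 0.31, adjusted p = 0.000802) and 5.64 against normoxia-hyperoxia (SE 0.34, adjusted p = 9.38e-07). Gcnt1 had -6.11 against 6 h controls, -7.57 against 24 h controls and -8.23 against normoxia-hyperoxia, with SE of 0.34, 0.32 and 0.36. Against 6 h controls S1pr3 had -2.23 and Mpped1 -4.44. Against 24 h controls Gsta2 had -4.21, Hgsnat 2.36 and Tmem108 2.65. Against normoxia-hyperoxia C4a had 4.39 and Mlycd -2.31. All 12 kept their direction and their call in every alternative run, leaving out each library included. They were chosen by their p-values and the runs refit the same data, so this is not independent support.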

How the results depend on the processing

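Under all 7 alternatives the count of strain differences under normoxia stayed within 1.5 times its value: RLE size factors gave 8014, no filter on low counts 8731, DESeq2 7403, removal of mitochondrially encoded genes 7953, 1 fit of all 48 libraries 7470, and leaving out 1 library 6749 to 7731. Leaving out 1 library gave 2216 to 5157 for the 6 h controls, 2382 to 5014 for the 24 h controls and 2219 to 3301 for normoxia-hyperoxia. For the differences of strain differences it gave 241 to 1125 against 6 h controls, 1860 to 2700 against 24 h controls and 2240 to 3364 against normoxia-hyperoxia. Against 6 h controls no filter gave 1536 and DESeq2 1181; the cause was not tested. Of 161 results for named genes, 142 kept their direction and side of the threshold under every alternative, 15 lost a call in at least 1, 3 gained one and 1 changed sign. The sign change was the strain difference of Mlycd under normoxia, which lay near 0 throughout: 0.01 with RLE size factors, no filter or DESeq2, 0.02 with all 48 libraries and -0.09 to 0.11 without single libraries. Calls lost in the fit of all 48 libraries included those of Ahr, Atf3, C1qa, Col1a1, Col3a1, Slc34a1, Slc22a30, Tiparp and Mpped1, with adjusted p from 0.0831 to 0.313; that fit shares 1 estimate of spread over 16 groups.

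With the replicate number as a block (the replicate block), the counts were 7803 under normoxia, 3889 in 6 h controls, 2948 in 24 h controls and 3003 under normoxia-hyperoxia. For the differences of strain differences the block gave 534, 2331 and 2939. Correlations of same-numbered libraries of the strains under normoxia, as deviations from their group means, were -0.039, -0.01 and -0.143. With 3 libraries in a group these values cannot tell whether such libraries share a preparation. Within a strain, same-numbered libraries of normoxia and 6 h controls correlated by 0.184, 0.209 and 0.067 in C57BL/6J and 0.257, 0.168 and 0.192 in DBA/2J, each best with its own number. With normoxia-hyperoxia they correlated by 0.303, 0.13 and 0.254 in DBA/2J, again each best with its own number, and by 0.064, 0.179 and -0.042 in C57BL/6J, and with 24 h controls by -0.069 to 0.139. A replicate block within strain, chosen after seeing the data, gave 1462, 2677 and 3921 differences of strain differences, the first with 606 of the 616. Whether these libraries share a mouse or preparation is not given in the sources used here. With the block Igha had an adjusted p of 0.0553, Serpina1f 0.0528 and Ren1 0.028, and the log2 of Mlycd was 0.0. With 3 libraries a strain, a within-strain spread such as that of Cyp7b1 leaves a large fold without a call in most settings, and genes under the filter on low counts could not be tested.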

Other observations

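Processed pseudogenes, copies of spliced transcripts elsewhere in the genome, were mostly higher in DBA/2J among those called. Of 316 tested under normoxia, 125 were higher and 23 lower, with a median of 0.46, against a median of -0.02 in 14104 protein-coding genes. Reads of both strains were counted on the C57BL/6J reference, and the part of this in the difference was not tested. In 5 equal groups of the tested genes, ordered from the lowest to the highest mean expression, the median log2 was -0.27, -0.23, -0.02, 0.05 and 0.15. In 3 genes of large fold that lie on different chromosomes, Cyp7b1, Serpina1f and Ceacam2, replicate 1 of C57BL/6J was the lowest of its strain. Replicate 1 of DBA/2J was the highest of its strain for Cyp7b1 (22.1, 1.56 and 1.05 CPM) and Serpina1f (1.80, 0.261 and 0.0841 CPM).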
